A study of Mus musculus with 8 samples.

Results

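Glypicans and syndecans are the membrane-bound heparan sulfate proteoglycans, and 9 of their genes were followed here by symbol: the glypicans Gpc1, Gpc2, Gpc3, Gpc4 and Gpc6 and the syndecans Sdc1, Sdc2, Sdc3 and Sdc4. They are 9 of the 47729 genes listed for the neural stem cells (NSCs) and of the 40562 listed for the astrocytes. The members were taken by name, with earlier results of these data known. Gpc5, the remaining mouse glypican, is not one of the 9 and is given below only for its level.

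RNA sequencing was performed on 8 libraries from C57BL/6 mice. S89G-DMP1 mice are knock-in animals in which serine 89 of dentin matrix protein 1 (DMP1), a residue that carries a glycosaminoglycan chain, is replaced by glycine, made in C57BL/6J embryonic stem cells with the selection cassette removed and bred to homozygosity, and the wild type (WT) C57BL/6 mice carry no such allele. NSCs came from the sub-ventricular zone and were grown as neurospheres, with 3 WT and 3 S89G-DMP1 libraries. Astrocytes came from cortex and were grown in medium with serum, with 1 WT and 1 S89G-DMP1 library. The labels give the age of all mice as 10 weeks, while the study's methods give an older age for the mice behind the astrocyte cultures. No source used here says whether the 3 NSC libraries of a genotype were separate mice or cultures, so p-values measure the spread between these libraries, which may be technical. These are cultured cells and not brain tissue, and the mutation is present in every cell of the animal rather than in 1 cell type.

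Glypicans are held on the outer face of the membrane by a lipid anchor, and syndecans cross the membrane with a short cytoplasmic tail. Both carry heparan sulfate chains that bind FGFs, Wnts, Hedgehogs, BMPs, Slits and matrix proteins and present them to their receptors. In the nervous system Gpc1 is known as a neural glypican that supports FGF responses and binds Slit proteins, Gpc4 and Gpc6 as astrocyte-released factors that promote excitatory synapses, and Sdc3 as the neuronal syndecan and a receptor for pleiotrophin. Enzymes can cut the core proteins free of the membrane, and the sulfation of the chains decides which ligands they hold.

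All 9 are protein-coding genes, placed here on the mouse genome GRCm38. Gpc1 (ENSMUSG00000034220) spans chr1:92831645-92860779, Gpc2 chr5:138273655-138280005, Gpc6 chr14:116925315-117976544, Sdc1 chr12:8771323-8793715, Sdc2 chr15:32920723-33034935, Sdc3 (ENSMUSG00000025743) chr4:130792537-130826319 and Sdc4 chr2:164424247-164443887. Gpc4 (chrX:52053021-52165252) and Gpc3 (chrX:52272426-52613950) are neighbours on the same strand of the X chromosome with 107173 bases between them. Sdc3 overlaps exons of the antisense gene Gm12970, which had a mean of 2.33 counts per NSC library, and Gpc1 overlaps exons of Ankmy1, which had 0 in the NSCs. Gpc2 overlaps exons of the protein-coding gene Gm43720 on the same strand, which also had 0 in the NSCs. The use of strand in counting is not stated, so reads of such pairs cannot be told apart, but the counts of these partners were small beside those of the members. How reads shared by both genes of a pair were counted is not stated either, so the members may have lost reads.

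Promoter sequences (RefSeq, GRCm38.p6, from 250 bases before to 50 after the start, 5′ to 3′ on the gene's strand) were held for 6 of the 9 genes. They are shown for Sdc3, the 1 syndecan called in NSCs, and for the X-linked neighbours Gpc4 and Gpc3, whose levels went opposite ways in the astrocytes. Capitals mark the GC box, GGGCGG or its reverse complement CCGCCC, searched on both strands. The RefSeq start need not be the outer end of the span given above, and the Gpc4 window lies wholly inside that gene's span.
Sdc3, chr4:130792287-130792586, plus strand: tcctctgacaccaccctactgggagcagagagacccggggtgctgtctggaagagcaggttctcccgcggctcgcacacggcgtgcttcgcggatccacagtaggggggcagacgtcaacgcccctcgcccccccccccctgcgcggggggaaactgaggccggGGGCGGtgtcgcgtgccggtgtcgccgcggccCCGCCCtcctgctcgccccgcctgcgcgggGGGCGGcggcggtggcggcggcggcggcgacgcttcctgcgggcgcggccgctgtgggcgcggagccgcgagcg
Gpc4, chrX:52164874-52165173, minus strand: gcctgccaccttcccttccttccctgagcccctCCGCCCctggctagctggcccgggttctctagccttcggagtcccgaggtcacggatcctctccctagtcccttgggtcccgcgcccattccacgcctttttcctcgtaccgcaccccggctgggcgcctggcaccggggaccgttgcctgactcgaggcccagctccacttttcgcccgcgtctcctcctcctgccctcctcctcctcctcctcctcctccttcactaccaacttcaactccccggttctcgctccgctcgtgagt
Gpc3, chrX:52613925-52614224, minus strand: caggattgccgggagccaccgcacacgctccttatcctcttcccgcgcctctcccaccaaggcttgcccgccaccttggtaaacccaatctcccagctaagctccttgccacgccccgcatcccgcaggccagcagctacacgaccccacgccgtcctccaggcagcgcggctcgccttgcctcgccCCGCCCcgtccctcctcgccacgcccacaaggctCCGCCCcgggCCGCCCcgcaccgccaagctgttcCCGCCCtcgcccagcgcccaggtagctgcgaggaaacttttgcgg
These windows hold 3, 1 and 4 GC boxes and 44, 22 and 30 CpG dinucleotides, where the median over 32851 promoters is 7. A GC box was present in 6 of 6 member promoters and in 35.7% of all promoters of the same length. The letters TATAAA, on either strand, were present in 0 of 6 and in 13.6% of all.

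The NSC libraries held 2354615 to 2588130 reads assigned to genes, the WT astrocyte library 14008670 and the S89G-DMP1 astrocyte library 13016924. Dmp1 itself, whose substitution a count per gene does not read, had 18, 21 and 16 counts in WT NSCs and 6, 3 and 5 in S89G-DMP1 NSCs (edgeR log2 fold change -1.90, SE 0.38, adjusted p = 0.00013). In the astrocytes it had 2 counts in the WT and 119 in the S89G-DMP1 library. Among NSC libraries, neural progenitor markers summed to 3503 to 3744 on the scale of counts relative to library size (CPM) in WT and 3871 to 3947 in S89G-DMP1. Astrocyte markers summed to 2105 to 2160 and 2768 to 2837 CPM, with 5 of 10 tested genes called higher, and fibroblast and meningeal markers to 166.7 to 186.1 and 83.5 to 94.7 CPM, with 2 of 3 tested called lower and 6 of 12, Col1a2, Dcn and Lum among them, at 0 in all libraries. That sum was mostly Thy1, with means of 151.0 and 69.1 CPM, while Foxc1 had 6.16 and 9.16. Oligodendrocyte lineage markers summed to 3745 to 4023 and 3835 to 4021 CPM, with 1 of 5 tested (Cspg4) called lower. Neuron markers summed to 1186 to 1333 and 1219 to 1240 CPM, mostly Map2, with 1 of 5 tested called lower, Syt1 with means of 61.5 and 7.63 CPM. Mural markers summed to 40.0 to 59.4 and 38.5 to 55.2, endothelial markers to 2.11 to 4.27 and 5.56 to 10.5, with Flt1, the 1 gene tested, called higher, and microglia markers to at most 0.856, with 6 of 8 at 0.

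The astrocyte libraries differed in their cell type markers. In the library labelled WT astrocytes several astrocyte genes had few counts: Gfap had 90, Aqp4 8, Slc1a3 8 and Mlc1 2. The S89G-DMP1 library had 901, 4051, 3877 and 2399. Others were well counted in both: Glul had 4247 counts in WT and 3709 in S89G-DMP1, Gja1 1165 and 1913 and Sox9 539 and 1820. S100b went the other way, with 64 and 30 counts. The astrocyte list summed to 514.3 CPM in the WT library, of which Glul gave 335.4, and to 1717 in the other. Of 12 counted genes, 9 were at least 2-fold higher in S89G-DMP1 and 1 at least 2-fold lower. Fibroblast and meningeal markers summed to 6287 and 2332 CPM, with 8 of 12 at least 2-fold lower, Col3a1 with 14756 and 2845 counts. Mural markers summed to 3338 and 4019 CPM, of which Acta2 gave 722.8 and 2468, while 6 of 8 counted mural genes were lower and 4 of them at least 2-fold. Microglia markers summed to 581.5 and 851.2, endothelial markers to 195.4 and 71.7, progenitor markers to 733.5 and 2126, oligodendrocyte lineage markers to 92.8 and 370.4, and neuron markers to 97.7 and 301.1. Each genotype has only this 1 library, so no value without it could be had, and the genotype cannot be told apart from the makeup of the culture. In such bulk RNA, fewer cells of a type and less RNA per cell cannot be told apart either.

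In NSCs, 1 glypican fell and 1 syndecan rose. Gpc1, the second most abundant of the 9 genes, dropped to 67.1% of its WT level in S89G-DMP1 NSCs, and Sdc3, the most abundant, rose 1.12-fold. The other 6 genes tested were not called. By the quasi-likelihood test of edgeR, adjusted after Benjamini and Hochberg over 11194 genes, 1773 genes (15.8%) were called at an adjusted p under 0.05, 7.08% higher and 8.76% lower. The members gave 1 higher and 1 lower of 8 tested, and 1 member, Gpc3, had too few counts to enter. Their median log2 fold change was -0.03, against 0.00 for all genes tested.

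Gpc1 had 765, 922 and 854 counts in the WT NSC libraries and 559, 556 and 528 in the S89G-DMP1 libraries. Scaled by TMM, an estimate of library size that is little moved by a few abundant genes, the 3 WT values are 322.4, 358.2 and 341.1 CPM, and those of S89G-DMP1 are 235.4, 238.0 and 211.8 CPM. Every S89G-DMP1 library was below every WT library. The means were 340.5 ± 17.9 and 228.4 ± 14.4 CPM (SD, n = 3), and the fitted log2 fold change was -0.58 with an SE of 0.06 and a 95% interval of -0.70 to -0.46 (edgeR adjusted p = 1.6e-11). With each library left out in turn it stayed between -0.61 and -0.53, called in 6 of 6 fits. It was larger than the change of 66.8% of the genes called lower. In the deposited TPM values Gpc1 was also lower in every S89G-DMP1 library (80.0, 149.4 and 129.9 against 211.9, 234.5 and 218.4), but limma on log2(TPM + 1) gave -0.93 with an adjusted p of 0.146.

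Sdc3 moved the other way and by less. Its counts were 1736, 1947 and 2021 in WT and 2142, 1977 and 2070 in S89G-DMP1 NSCs, or 731.6, 756.4 and 807.1 against 902.2, 846.1 and 830.3 CPM. The groups did not overlap on the CPM scale, although the raw counts did. The means were 765.0 ± 38.5 and 859.5 ± 37.8 CPM (SD, n = 3), a log2 fold change of 0.17 with an SE of 0.05 and a 95% interval of 0.07 to 0.27 (edgeR adjusted p = 0.0133). It was larger than the change of only 2.27% of the genes called higher. The call was lost without S89G-DMP1 library 1 (adjusted p = 0.115), without WT library 1 (0.0646) and without WT library 2 (0.0505) in the edgeR fits, and in limma on log2(TPM + 1), with an adjusted p of 0.285. Gpc1 and Sdc3 were the 2 members whose genotypes did not overlap, where 30.7% of all genes tested did not, 14.8% with S89G-DMP1 higher and 16.0% with it lower.

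**Figure D1:**
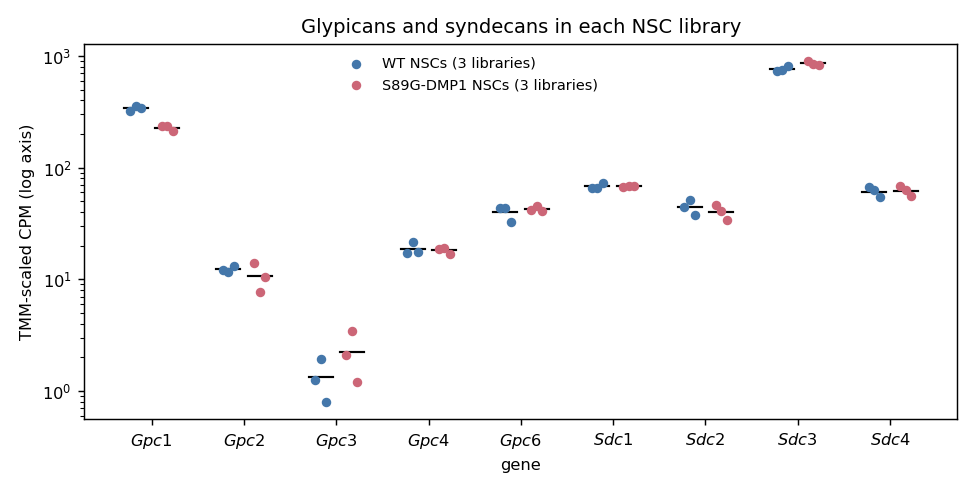
TMM-scaled CPM of the 9 genes in each NSC library, on a log axis. Points are the 3 WT and 3 S89G-DMP1 libraries and black lines are group means; the genotypes separate for Gpc1 (211.8 to 238.0 CPM below 322.4 to 358.2) and Sdc3 (830.3 to 902.2 above 731.6 to 807.1) and overlap for the other 7 genes.

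The other glypicans were lower in level and were not called in NSCs. Gpc6 had 43.8, 43.1 and 32.8 CPM in WT and 42.1, 45.8 and 40.5 in S89G-DMP1 NSCs (log2 fold change 0.10, 95% interval -0.15 to 0.35, edgeR adjusted p = 0.656). Gpc4 had 17.3, 21.8 and 17.6 CPM in WT and 18.5, 19.3 and 16.9 in S89G-DMP1 NSCs (-0.06, -0.41 to 0.29, edgeR adjusted p = 0.879). The groups overlapped for both of these synapse-promoting glypicans. Gpc2, also called cerebroglycan and known from developing neurons, had 29, 30 and 33 counts in WT and 33, 18 and 26 in S89G-DMP1 (-0.21, -0.66 to 0.24, edgeR adjusted p = 0.607). In the deposited TPM values, however, Gpc2 did not overlap, with 49.6, 46.1 and 59.7 in WT and 28.5, 37.8 and 23.2 in S89G-DMP1, and limma on log2(TPM + 1) gave -0.80 with an adjusted p of 0.151. Gpc3, a glypican that restrains Hedgehog signalling in growth control, had 3, 5 and 2 counts in WT and 5, 8 and 3 in S89G-DMP1, too few to be tested. The non-member Gpc5 had 3 to 8 counts per library and was not tested either.

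The other syndecans were not called in NSCs. Sdc1, best known as the syndecan of epithelia, had 66.2, 66.4 and 72.7 CPM in WT and 67.4, 68.1 and 68.6 in S89G-DMP1 NSCs (log2 fold change -0.01, 95% interval -0.20 to 0.18, edgeR adjusted p = 0.968). Sdc4, the syndecan of focal adhesions, had 66.6, 62.5 and 54.3 CPM in WT and 69.1, 62.5 and 55.4 in S89G-DMP1 (0.03, -0.18 to 0.24, edgeR adjusted p = 0.906). Both genes had overlapping genotypes. Sdc2, known for its part in dendritic spine formation, had 44.3, 50.9 and 37.9 CPM in WT and 46.3, 40.7 and 34.1 in S89G-DMP1 (-0.14, -0.39 to 0.11, edgeR adjusted p = 0.507), again overlapping. Over the 6 members tested but not called, the 95% intervals ran from -0.66 to 0.35.

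Levels of different genes were compared only per length, as CPM per kilobase with the gene lengths behind the deposited astrocyte FPKM values. On that scale WT NSCs held Sdc3 at 451.2 ± 22.5, Gpc1 at 249.2 ± 13.1, Sdc1 at 46.6 ± 2.49, Sdc4 at 37.4 ± 3.84 and Sdc2 at 23.7 ± 3.46 (SD, n = 3). Gpc6 followed at 9.44 ± 1.47, Gpc4 at 7.08 ± 0.94, Gpc2 at 4.86 ± 0.30 and Gpc3 at 0.648 ± 0.279. In this order only Gpc6 and Gpc4 overlapped between libraries. The place of Gpc2 depends on the scale: in the deposited TPM values it stood at 51.8 ± 7.04 in WT NSCs, 5.89% of the sum of the 9 genes, against 0.586% here. Sdc3 made up 54.3% ± 1.6 of the summed level of the 9 genes in WT NSCs and Gpc1 made up 30.0% ± 0.94, so that this pair dominated the NSCs. In S89G-DMP1 NSCs the order was the same, with Sdc3 at 506.0 ± 22.1, or 63.2% of the sum, and Gpc1 at 166.8 ± 10.5, or 20.8%.

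The ratio of Sdc3 to Gpc1 per length was 1.70 to 1.91 in the WT NSC libraries and 2.87 to 3.16 in the S89G-DMP1 libraries. The summed syndecan level over the summed glypican level was 1.95 to 2.15 in WT and 3.07 to 3.35 in S89G-DMP1 NSCs, groups that did not overlap. These ratios restate the Gpc1 and Sdc3 values above and were not tested. With the lengths of RefSeq-matched transcripts in place of the deposited lengths, which differ most for Gpc1 (1359 against 4176 bases) and Sdc3 (1686 against 4973 bases), the ratio of sums was 1.91 to 2.12 and 2.79 to 3.02. Sdc4 then stood above Sdc1, with overlapping libraries in WT.

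The libraries labelled astrocytes held a different set. The WT one had few counts of several astrocyte markers and many of fibroblast and meningeal ones, as given above. Here no member dominated: per length, the WT library had Sdc3 at 203.1, Sdc4 at 169.3, Gpc6 at 151.2 and Sdc2 at 138.9 FPKM, then Gpc1 at 74.8, Gpc4 at 66.7, Sdc1 at 46.4, Gpc3 at 10.8 and Gpc2 at 0.876 FPKM. In the S89G-DMP1 library the order began with Sdc4 at 334.2, Gpc4 at 189.8, Sdc2 at 157.1, Sdc3 at 133.2 and Gpc1 at 121.5 FPKM, followed by Sdc1 at 85.0, Gpc6 at 44.8, Gpc3 at 3.34 and Gpc2 at 2.28 FPKM. Gpc1 made up 24.6% of the summed glypican FPKM in WT and 33.6% in S89G-DMP1 astrocytes, against 91.9% and 88.3% of the glypican level in NSCs. With RefSeq-matched lengths these shares were 8.58% and 13.7% in astrocytes and 77.3% and 69.3% in NSCs. On the same lengths Gpc6 came first in the WT astrocytes, at 182.1, so the order of the leading genes there depends on the lengths. The tables were processed separately, so levels set across the cell types are side by side only.

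**Figure D2:**
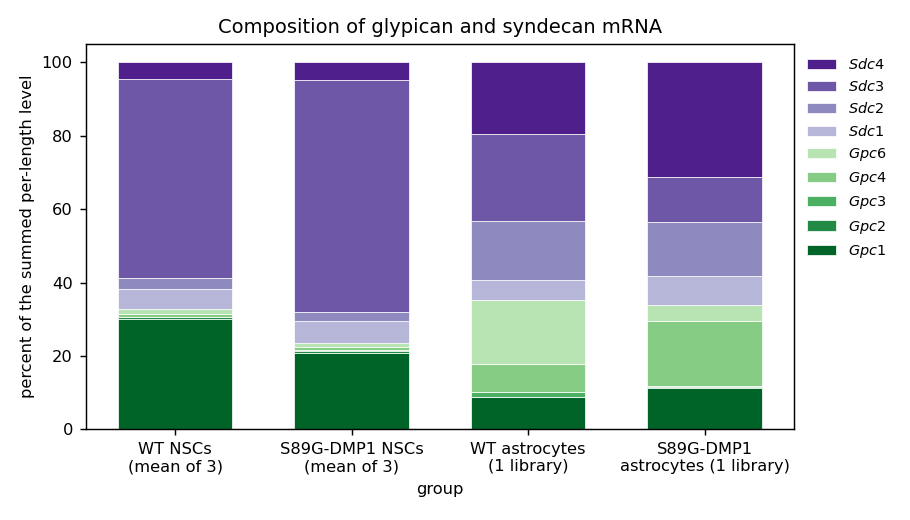
Stacked bars of each gene's percent of the summed per-length level (CPM per kilobase, deposited lengths) of the 9 genes in each group; NSC bars are means of 3 libraries and astrocyte bars are 1 library each. Sdc3 and Gpc1 fill most of the NSC bars (54.3% and 30.0% in WT), while in the astrocytes Gpc6 takes 17.5% in WT and 4.18% in S89G-DMP1, and Gpc4 7.74% and 17.7%.

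Between the astrocyte libraries the glypicans went in opposite directions. Gpc6 had 4.13-fold fewer and Gpc3 3.96-fold fewer reads in S89G-DMP1 on the TMM-scaled CPM, while Gpc4 was 2.32-fold and Gpc2 2.13-fold higher. There is 1 library per genotype, so there is no replicate check and no test, and the 95% intervals given are exact ones that cover counting error only. Among 15680 genes that reached 10 counts in 1 library or both, 30.1% differed at least 2-fold, 17.3% higher and 12.8% lower in S89G-DMP1. Scaled by library size alone, 31.9% did so, 22.2% higher and 9.66% lower. All 9 members were counted, of which 2 were higher and 2 lower by 2-fold or more, and 6 differed by 1.5-fold or more, beside 46.5% of all genes. Their median log2 ratio was 0.41, against 0.01 over all genes. Scaling by library size alone raised the median of all genes to 0.30, and every ratio here is relative to the TMM scale.

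Gpc6 had 8899 counts in the WT and 2450 in the S89G-DMP1 astrocyte library, or 702.9 and 170.1 CPM, a WT over S89G-DMP1 fold of 4.13 (3.95 to 4.32). Gpc4 had 2477 and 6551 counts, or 195.6 and 454.9 CPM, a fold of 2.32 (2.22 to 2.44) in favour of S89G-DMP1. These related glypicans thus changed places: by FPKM Gpc6 was 2.27 times Gpc4 in WT, and Gpc4 was 4.24 times Gpc6 in S89G-DMP1 astrocytes. Only Gpc6 was past 4-fold, where 13.8% of all genes were, 8.64% higher and 5.18% lower, and its log2 ratio was -1.75 by library size alone, short of 4-fold. Gpc3 had 310 and 89 counts (24.5 and 6.18 CPM, WT over S89G-DMP1 3.96, 3.12 to 5.07). Its X-linked neighbour Gpc4, whose promoter is shown above beside that of Gpc3, thus stood on the other side. Gpc1 had 1425 and 2149 counts, or 112.5 and 149.2 CPM, a fold of 1.33 (1.24 to 1.42). Gpc2 had 31 and 75 counts, a fold of 2.13 with a wide interval of 1.38 to 3.35. The non-member Gpc5 had 2 and 19 counts, a ratio of 8.35 (2.02 to 73.9).

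Of the syndecans, Sdc4 and Sdc1 were higher in the S89G-DMP1 astrocyte library and Sdc3 was lower. Sdc4 had 3861 and 7082 counts, or 304.9 and 491.7 CPM, a fold of 1.61 (1.55 to 1.68), and Sdc1 had 949 and 1616 counts, or 75.0 and 112.2 CPM, a fold of 1.497 (1.38 to 1.62). Sdc3 had 4797 and 2924 counts, or 378.9 and 203.0 CPM, a WT over S89G-DMP1 fold of 1.87 (1.78 to 1.96). No syndecan reached 2-fold. Sdc2 had 3626 and 3812 counts, or 286.4 and 264.7 CPM, and its direction depends on the scaling: the log2 ratio was -0.11 by TMM and 0.18 by library size alone. The other 8 members kept their direction under both scalings. The share of Sdc3 in the summed syndecan FPKM was 36.4% in WT and 18.8% in S89G-DMP1, and that of Sdc4 was 30.4% and 47.1%. Beside these differences stand the marker sums given above, 6287 and 2332 CPM for fibroblast and meningeal genes and 514.3 and 1717 CPM for astrocyte genes. Their part in the glypican and syndecan differences was not tested.

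**Figure D3:**
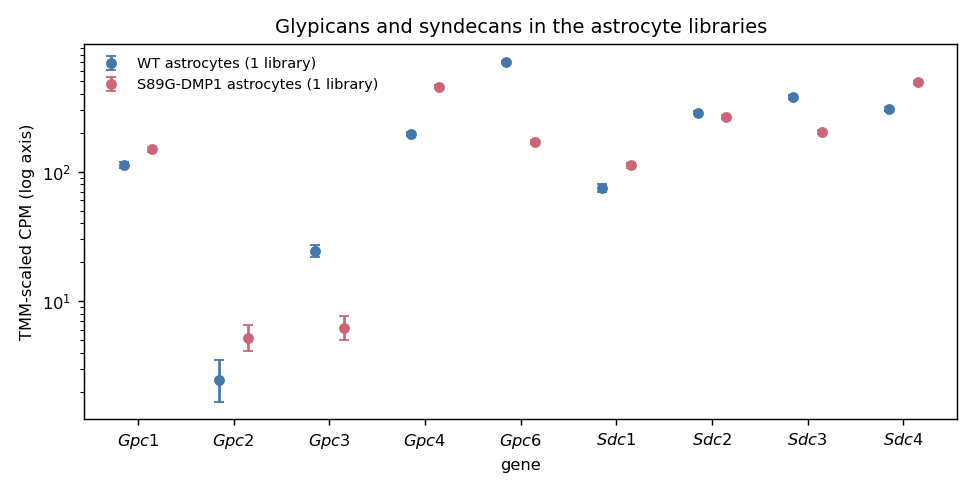
TMM-scaled CPM of the 9 genes in the WT and the S89G-DMP1 astrocyte library, on a log axis; bars are exact 95% Poisson intervals, which cover counting error only and are mostly smaller than the points. Gpc6 (702.9 and 170.1 CPM) and Gpc3 (24.5 and 6.18) are lower, and Gpc4 (195.6 and 454.9) and Gpc2 (2.45 and 5.21) higher in S89G-DMP1.

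Set side by side, the genes that were called in NSCs stood in the opposite direction in the astrocyte pair. Gpc1 was at -0.58 in NSCs and 0.41 in astrocytes, and Sdc3 at 0.17 and -0.90 (log2, S89G-DMP1 over WT). Gpc6 and Gpc4, at -2.05 and 1.22 in the astrocyte pair, were at 0.10 and -0.06 in NSCs, with intervals of -0.15 to 0.35 and -0.41 to 0.29. The difference between the cell types was not tested, since the tables were made separately and the astrocytes have 1 library per genotype. The astrocyte pair also differs in its cell type markers, as given above.

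**Figure D4:**
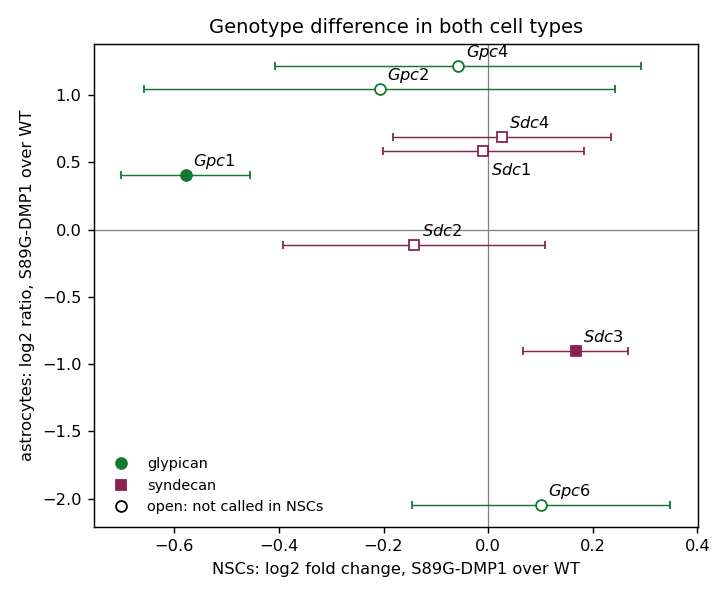
Log2 fold change in NSCs (x axis, with 95% intervals from edgeR, 3 against 3 libraries) against the log2 ratio in astrocytes (y axis, 1 against 1 library), both S89G-DMP1 over WT, for the 8 members tested in NSCs. Gpc1 (-0.58, 0.41) and Sdc3 (0.17, -0.90), the filled symbols, lie in opposite quadrants, and Gpc6 (0.10, -2.05) lies lowest.

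Over the 8 libraries, with each table centred on its own mean, the genes whose log2 CPM lay nearest to that of Gpc1 were Tnc, L3mbtl3 and Plvap, at root mean square distances of 0.04, 0.06 and 0.07 among 11007 genes searched. Tnc, the matrix glycoprotein tenascin-C, had a log2 fold change of -0.64 in NSCs and a log2 ratio of 0.50 in astrocytes, beside -0.58 and 0.41 for Gpc1. The genes nearest to Sdc3 were Nab1, Arpc1b and Taldo1, at distances of 0.03, 0.05 and 0.05. None of these last 3 was called in NSCs (edgeR adjusted p = 0.13, 0.28 and 0.086). The likeness rests on 2 astrocyte and 6 NSC libraries and on no test. These genes were picked for their small distance in the same libraries, so their like fold changes follow from that choice.

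The genes that build, cut, bind and signal through these proteoglycans were taken as 7 lists with 111 genes. In NSCs 72 were tested, of which 6 (8.33%) were called higher and 19 (26.4%) lower, beside 7.08% and 8.76% of all genes, with a median log2 fold change of -0.10. No test was run on a list as a whole. The lists were chosen with earlier results of these data known, so these shares cannot be read as an enrichment. Of the calls, 17 of 25 were kept with each library left out, while 8 were lost in at least 1 such fit.

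Among the 10 enzymes of the linker and of chain polymerisation, all tested in NSCs, 2 fell and none rose, and the median log2 fold change was -0.17. Xylt1, the xylosyltransferase that starts the chains, fell from 651.3 ± 24.2 to 545.4 ± 34.7 CPM (log2 fold change -0.26, edgeR adjusted p = 0.0002), and Extl3, which begins the heparan sulfate polymer, from 296.8 ± 15.7 to 236.6 ± 27.4 CPM (-0.33, edgeR adjusted p = 0.0001). Of the heparan sulfate modification enzymes, 10 of 21 were tested, 2 fell and none rose (median -0.02). Sulf2, an extracellular sulfatase that removes sulfate groups from finished chains, fell from 707.7 ± 15.7 to 458.1 ± 31.2 CPM (-0.63, SE 0.05, edgeR adjusted p = 3.7e-15). Ndst2, an N-deacetylase and N-sulfotransferase, had an edgeR adjusted p of 0.039 that was lost in 5 of 6 fits with a library left out.

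Of the shedding and release genes, 8 of 14 were tested, 2 fell and none rose (median -0.01). The proprotein convertases that fell were Pcsk6, from 30.2 ± 0.97 to 13.1 ± 0.90 CPM (-1.21, edgeR adjusted p = 6.5e-08), and Furin, from 56.4 ± 2.43 to 39.1 ± 1.89 CPM (-0.53, edgeR adjusted p = 0.00033). Convertases of this family cut glypican core proteins. Of the proteins that meet the syndecan tail, 11 of 12 were tested, 1 rose and 2 fell (median -0.10). Ezr, encoding ezrin, which links membrane proteins to actin, rose from 8.72 ± 0.41 to 16.99 ± 2.88 CPM (0.95, edgeR adjusted p = 0.00074), and Prkca, encoding the kinase that Sdc4 binds, fell from 82.0 ± 9.80 to 61.5 ± 5.34 CPM (-0.42, edgeR adjusted p = 0.00116). Pdcd6ip, which acts with syntenin in vesicle release, was at -0.25 (edgeR adjusted p = 0.00754), lost in 2 of 6 fits.

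Of the heparan sulfate-binding ligands, 9 of 21 were tested in NSCs, 2 rose and 3 fell (median 0.13). Fgf1 fell from 133.1 ± 4.29 to 80.7 ± 5.97 CPM (-0.72, edgeR adjusted p = 1.5e-10), Tnc from 4692 ± 199.6 to 3008 ± 121.4 CPM (-0.64, edgeR adjusted p = 7.8e-19) and Hbegf, an EGF receptor ligand, had a change of -0.37 (edgeR adjusted p = 0.00823) that was lost in 1 of 6 fits. Vegfa was at 0.32 (edgeR adjusted p = 0.0328), lost in 4 of 6 fits. Of the receptors, 18 of 22 were tested, 3 rose and 5 fell (median -0.13). Fgfr2 fell from 12.2 ± 0.62 to 5.83 ± 1.66 CPM (-1.06, edgeR adjusted p = 0.00179) while Fgfr3, which is also in the astrocyte marker list, rose from 108.9 ± 10.0 to 138.0 ± 3.51 CPM (0.34, edgeR adjusted p = 0.00075). Lrp1, an endocytic receptor, was at -0.38 (edgeR adjusted p = 7.8e-08), and the Slit receptor Robo2 at 0.57 (edgeR adjusted p = 0.00997), lost in 2 of 6 fits.

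Of the other heparan sulfate proteoglycans, 6 of 11 were tested, 3 fell and none rose, and their median of -0.31 was the lowest of the 7 lists. All 3 are secreted proteoglycans of the basement membrane. Col18a1, the core of collagen XVIII, fell from 198.7 ± 14.5 to 96.6 ± 7.93 CPM (-1.04, SE 0.08, edgeR adjusted p = 5.4e-18), Hspg2, or perlecan, from 117.9 ± 8.66 to 77.5 ± 10.9 CPM (-0.61, edgeR adjusted p = 1.9e-07) and Agrn, or agrin, from 561.6 ± 16.8 to 408.7 ± 36.2 CPM (-0.46, edgeR adjusted p = 1.5e-09). The sum of the fibroblast and meningeal list, at 166.7 to 186.1 and 83.5 to 94.7 CPM and mostly Thy1, was lower with them in the same libraries. Of that list Thy1 and Pdgfra were called lower, and Foxc1 was not called (means of 6.16 and 9.16 CPM). Another 6 of its 12 genes were at 0 in all libraries, so the lower sum does not show fewer fibroblast or meningeal cells. The part of these markers in this result, or in that of Gpc1, was not tested.

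**Figure D5:**
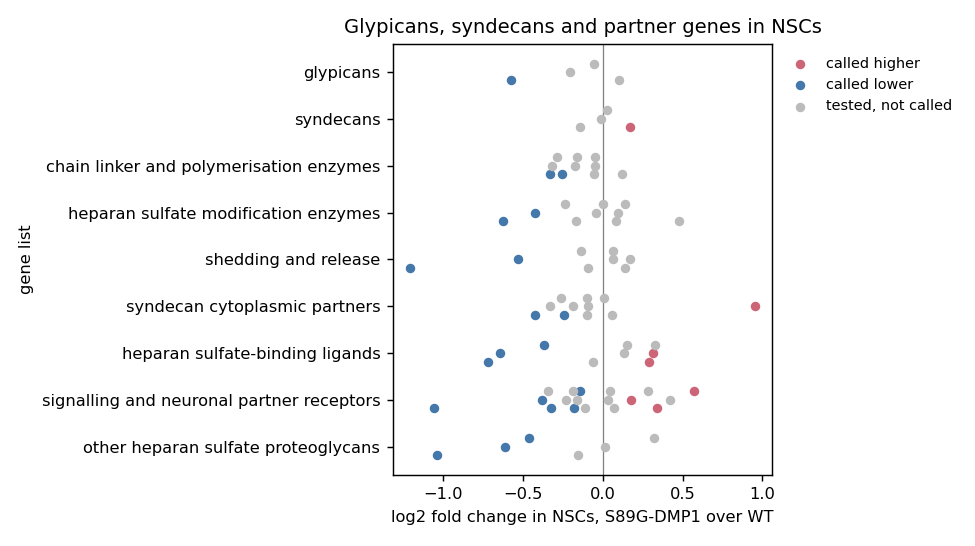
Log2 fold change in NSCs (S89G-DMP1 over WT) of each tested gene of the glypicans, the syndecans and the 7 partner lists; coloured points passed edgeR's adjusted p of 0.05 and grey points did not. Gpc1 lies at -0.58 and Sdc3 at 0.17, and the called members of the other heparan sulfate proteoglycans lie at -1.04, -0.61 and -0.46.

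In the astrocyte pair 99 partner genes were counted, of which 28 (28.3%) stood 2-fold or more above WT in S89G-DMP1 and 22 (22.2%) stood 2-fold or more below, beside 17.3% and 12.8% of all genes, with a median log2 ratio of -0.11. By list, the numbers past 2-fold above and below were 1 and 1 of 10 for linker and polymerisation (median -0.34), 5 and 4 of 16 for modification (0.02), 1 and 3 of 12 for shedding (-0.23) and 3 and 2 of 12 for the cytoplasmic partners (-0.03). They were 6 and 8 of 19 for ligands (-0.38), 9 and 3 of 20 for receptors (0.44) and 3 and 1 of 10 for the other proteoglycans (-0.48). Each list held genes above and below 0. As in NSCs, these shares cannot be read as an enrichment.

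The extracellular sulfatase Sulf1 was at 1567 CPM in the WT astrocytes and at 216.8 in the mutant ones (log2 ratio -2.85), and the metalloprotease inhibitor Timp3 had 12130 and 732.7 CPM (-4.05). Mmp2, a metalloprotease, was at -2.98. Xylt1 was at 2.06, Pcsk6 at 2.12, Ezr at 3.04 and the sulfotransferases Ndst3, Hs3st3b1 and Hs6st2 at 3.61, 2.90 and 2.76. Xylt1 and Pcsk6 thus fell in NSCs and were over 4-fold higher in the S89G-DMP1 astrocytes. The ligand Ptn, encoding pleiotrophin, which Sdc3 binds, was at 5.74, with 53 and 3329 counts, while Bmp7 was at -4.31 and Cxcl12 at -4.11. Shh had 0 and 643 counts and was at least 188.4-fold higher, taking 3 counts as the floor for the WT library. Of the receptors, Ptprf was at 2.996 and Fgfr3 at 2.71. Beside them stand the same marker sums, and their part was not tested.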

How the data were processed

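RNA sequencing libraries of 6 NSC and 2 astrocyte samples were examined. Per the labels, RNA was taken with Trizol and libraries made with a kit for Illumina, and the submitters' processing notes name TopHat2 2.0.9, Bowtie2 2.0.6, HISAT2, StringTie and featureCounts. For the astrocytes, the authors deposited counts per gene and FPKM values (counts scaled by library size and by 1 length per gene). For the NSCs, the authors deposited counts and TPM values. The astrocyte counter and build are not given in the sources used here. Of 5795 NSC genes with a mean over 100 counts, 18 are listed at 0 TPM in all libraries, so the counts were used.

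Samples were grouped by genotype and cell type from their labels. NSC counts were filtered (filterByExpr), scaled by TMM and compared by edgeR's quasi-likelihood test (genotype only, Benjamini-Hochberg, 0.05; R 4.3.3, edgeR 4.0.16, limma 3.58.1). Each library was counted as 1 sample, and whether the libraries are independent cultures is not known. The chi-square per gene was 1.07 to 1.51 within a genotype and 3.17 to 4.07 between genotypes, where counting error alone gives about 1. Libraries of a genotype thus differed little beyond counting error, and the p-values need not cover variation between mice or cultures. Astrocytes, with 1 library each, were compared by the log2 ratio of CPM after TMM scaling (prior count 2) where a gene reached 10 counts. With 2354615 to 2588130 reads per NSC library, genes of few counts are imprecise, and the astrocyte intervals cover counting error only. DESeq2 1.42.0, limma on TPM and other scalings, filters and left-out libraries were alternatives. All 9 members are named, and from each partner list at most 4 genes called in NSCs or 4-fold apart in astrocytes, the largest first, except 1 result that is not reported here. The members and lists were chosen with earlier results of these data known. Figures and sequences were read from the same tables and from RefSeq.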

Additional observations from a re-analysis of the deposited data

Results flagged for a closer look

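Gpc1 and Sdc3 stood in opposite directions in NSCs and in the astrocyte pair. Gpc1 had a log2 fold change of -0.58 in NSCs, lower in 3 of 3 S89G-DMP1 libraries than in any WT library, and a log2 ratio of 0.41 in the astrocyte pair. Sdc3 had 0.17 in NSCs, higher in 3 of 3 S89G-DMP1 libraries, and -0.90 in the astrocyte pair. The NSC call of Sdc3 was lost in 3 of 6 edgeR fits with a library left out, and limma on TPM called neither gene. The difference between the cell types was not tested. The astrocyte pair also differed in its marker sums, 6287 and 2332 CPM for fibroblast and meningeal genes and 514.3 and 1717 CPM for astrocyte genes (WT and S89G-DMP1).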

How the results depend on the processing

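Of the 9 members, 2 were called in NSCs, and limma on log2(TPM + 1) and on log2(TPM + 0.1) called 0 (3 of 8 at an unadjusted p under 0.05 on each scale; DESeq2 called 2). With each library left out edgeR called 1 to 2. Over all genes 1773 were called, against 745 by DESeq2 (321 higher, 424 lower), 145 and 116 by limma on the same TPM scales, and 1363 to 1659 with a library left out. Over the partner genes the number was 25, against 15 by DESeq2, 5 and 5 by limma, and 20 to 24 with a library left out. At 4-fold, 1 member (4 at 2-fold) and 22 partner genes (50 at 2-fold) differed in astrocytes. The share of Sdc3 in the summed per-length level of WT NSCs was 54.3%, and 48.3% with RefSeq-matched lengths and 49.2% from TPM. Members that were not called changed sign: by limma Gpc4 was at 0.19 and 0.21, Sdc1 at 0.041 and 0.042 and Sdc2 at 0.38 and 0.40. With a library left out Gpc4 ran from -0.114 to 0.059, Gpc6 from -0.023 to 0.17, Sdc1 from -0.034 to 0.037 and Sdc4 from -0.053 to 0.106. In astrocytes Sdc2 was at 0.18 by library size and on both FPKM scales. The cause was not tested.

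No pairing of the NSC samples by shared library number was seen (correlations -0.02 to 0.03). Libraries of a genotype differed little beyond counting error, so this check could have missed a pairing. With the number as a replicate block, 1845 genes, 2 members and 26 partner genes were called, with Gpc1 at an edgeR adjusted p of 7.0e-14 and Sdc3 at 0.0108, and no member's call changed. Gpc3, Gpc2 and Gpc5 had few counts in NSCs. Why Gpc2 ranked higher in the deposited TPM values than by counts was not tested.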
